A study of Mus musculus with 8 samples.

Results

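The peptidases of the intestinal brush border were followed across sorted cells of the mouse intestinal crypt. The set was chosen by name, with earlier results of these data known. It holds 9 genes: Mep1a, Mep1b, Anpep, Enpep, Xpnpep2, Dpp4, Ace, Dpep1 and Ggt1. Every probe set annotated to exactly 1 of these genes was taken, which gave 14 of the 45037 probe sets tested. They cover 8 genes, 4 of them with more than 1 probe set, and Ggt1, the gamma-glutamyl transferase that acts on glutathione, was not analysed here. Epithelial cells freed from mouse intestine were stained for surface EphB2, the receptor tyrosine kinase whose level is highest at the crypt base. They were sorted as EphB2 Low, EphB2 Medium and EphB2 High, with 2 arrays per group. Cells of mice with an EGFP reporter knocked into Lgr5, a gene of cycling stem cells, were sorted as Lgr5 Low and Lgr5 High, with 1 array each. All 8 arrays are labelled as strain C57BL/6 and intestinal crypt cells, and no drug or diet is named. Age, and whether any array pools animals or replicates came from separate animals, are not given in the sources used here, so the p-values reflect how far these arrays differ within a group, and that spread may be technical only. Values are log2 levels after robust multi-array averaging (RMA), and a difference of 1 is a 2-fold change.

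Dietary protein is cut to peptides in the gut lumen, and the last cuts are made at the apical membrane of enterocytes, whose microvilli form the brush border. There endopeptidases open peptides internally, aminopeptidases trim them from the amino end, and dipeptidyl and dipeptide-splitting enzymes release short products that transporters take up. These enzymes belong to differentiated absorptive cells, which leave the crypt towards the villus. Several also act on hormones and other peptides, and some are known on cells outside the epithelium, as Dpp4 (CD26) is on T cells, Anpep (CD13) on myeloid cells and Ace on endothelium. The 9 genes lie on 9 chromosomes, so none is the neighbour of another.

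Markers of intestinal cell types differed between the EphB2 groups. Their lists were chosen with earlier results of these data known, so they are not an independent check of the sort. All 14 measured enterocyte markers were higher in EphB2 Low than in EphB2 High cells, and their median level was 13.61 and 13.65 on the Low arrays, 12.52 and 12.54 on the Medium arrays, and 11.37 and 11.25 on the High arrays. All 10 stem cell markers were lower in EphB2 Low cells, Lgr5 by 4.25 on the log2 scale (a difference of -4.25 ± 0.26, SE). Over all genes 13.2% were called higher and 19.6% lower between EphB2 Low and EphB2 High cells. Of 6 measured Paneth cell markers 5 were lower in EphB2 Low cells, by the smallest p Mmp7 (-2.15 ± 0.18) and Defa3 (-2.40 ± 0.23), and Wnt3, Itln1 and Lyz1 were the others. Of 6 tuft cell markers 4 were lower, by the smallest p Hpgds (-1.56 ± 0.19) and Rgs13 (-3.94 ± 0.50), and Dclk1 (-3.36) and Alox5ap (-2.18) were the others. The names after the first pair of each list were added once their values were seen. In sorted bulk samples, fewer cells of a type and less RNA per cell cannot be told apart.

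The stretches before the start sites are shown for the measured members in which letters of a known intestinal site were found. Promoter windows from 250 bases before to 50 bases after a start, from RefSeq on GRCm38.p6, were at hand for 8 of the 9 genes, in 12 windows. The gene without a window was Mep1b, and several of the windows belonged to Ggt1, whose level was not analysed. Both strands were searched for 4 letter strings, those of HNF1 (GTTAAT), HNF4 (CAAAGT), CDX (TTTATG) and GATA factors (AGATAA), which did not overlap where found. The HNF4 string was in 5 of 12 windows, belonging to 4 genes, and in 14.4% of all 32851 windows. Those genes were Mep1a, Dpep1, Ace and Ggt1, with the string in both Ace windows, of which 1 is printed. The GATA string was in 2 windows, of Dpp4 and Ggt1 (11.2% of all windows), the CDX string in 1 (11.9%) and the HNF1 string in 0 (7.10%). These are matches of letters and not measured binding. The 250 bases before the start are printed 5′ to 3′ on the gene's strand, with capitals for the HNF4 string (Mep1a, Ace and Dpep1, the last pair on the opposite strand) or the GATA string (Dpp4).
Mep1a, chr17:43502774-43503023, minus strand: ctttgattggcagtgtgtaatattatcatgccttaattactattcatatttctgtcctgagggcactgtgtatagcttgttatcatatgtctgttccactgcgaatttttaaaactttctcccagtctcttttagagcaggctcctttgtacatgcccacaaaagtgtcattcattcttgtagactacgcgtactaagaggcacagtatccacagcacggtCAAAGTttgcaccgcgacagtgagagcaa
Ace, chr11:105967698-105967947, plus strand: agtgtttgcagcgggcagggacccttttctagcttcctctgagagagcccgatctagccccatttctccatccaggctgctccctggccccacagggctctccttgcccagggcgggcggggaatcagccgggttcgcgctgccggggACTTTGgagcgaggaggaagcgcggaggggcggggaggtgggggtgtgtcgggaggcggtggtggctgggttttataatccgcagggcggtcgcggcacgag
Dpep1, chr8:123185985-123186234, plus strand: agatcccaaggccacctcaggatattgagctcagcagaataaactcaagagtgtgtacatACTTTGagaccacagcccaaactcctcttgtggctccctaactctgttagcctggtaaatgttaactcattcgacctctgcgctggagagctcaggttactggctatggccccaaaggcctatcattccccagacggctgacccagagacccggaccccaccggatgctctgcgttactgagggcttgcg
Dpp4, chr2:62412232-62412481, minus strand: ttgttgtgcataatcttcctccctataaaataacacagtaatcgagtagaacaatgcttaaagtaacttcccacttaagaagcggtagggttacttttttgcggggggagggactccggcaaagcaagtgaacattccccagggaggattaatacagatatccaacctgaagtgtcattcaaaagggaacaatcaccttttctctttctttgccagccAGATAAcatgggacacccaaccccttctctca

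Every measured member rose along the axis. All 14 probe sets were higher in EphB2 Low than in EphB2 High cells (limma, Benjamini-Hochberg adjusted over all probe sets), with a median difference of 3.05 and a range of 0.67 to 5.42. Of all probe sets 11.9% were called higher in this comparison, and the median over all of them was 0.01. Between EphB2 Medium and EphB2 High cells 6 of the 14 were called higher, against 0.282% of all probe sets, and none of the 14 was below 0. Between EphB2 Low and EphB2 Medium cells 13 of the 14 were called higher, against 6.78% of all probe sets. Counted by gene on the brightest probe set, 8 of 8 were called higher between Low and High. By the same count 4 were called between Medium and High and 7 between Low and Medium. Over all 18193 genes these comparisons called 2408, 93 and 1415 higher. The Low arrays lay above the High arrays without overlap for 14 of 14 probe sets (30.7% of all), and above the Medium arrays for 14 of 14 (28.6% of all). The Medium arrays lay above the High arrays for 13 of 14 (18.4% of all), the exception being the Mep1a probe set 1447252_s_at.

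**Figure D1:**
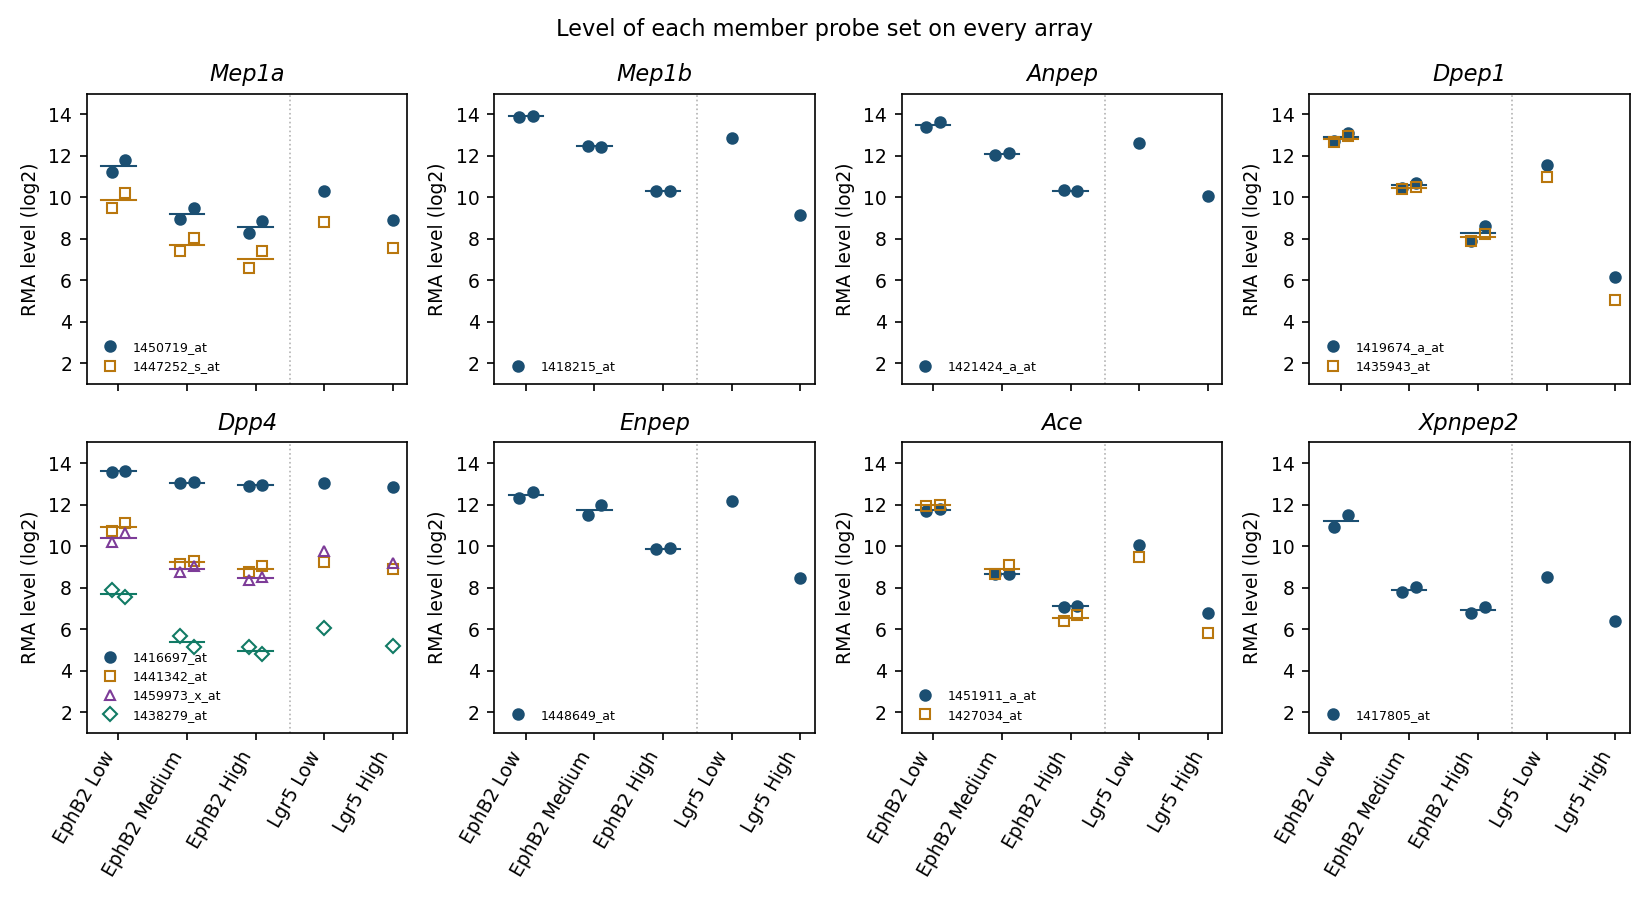
RMA level (log2) of each member probe set on all 8 arrays, in a panel per gene; filled points are the brightest probe set of the gene, open points its other probe sets, and bars the means of 2 EphB2 arrays. In every panel the EphB2 Low arrays lie highest among the EphB2 arrays, and Dpp4 1416697_at spans the least, from 12.91 to 13.64.

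Both meprins, zinc endopeptidases of the astacin family, rose over the axis, Mep1b with both steps past the threshold and Mep1a with the second. Mep1a encodes the alpha subunit, which reaches the membrane through the beta subunit or is secreted. On its brightest probe set it stood at 11.20 and 11.80 in EphB2 Low cells, 8.94 and 9.48 in EphB2 Medium cells, and 8.26 and 8.87 in EphB2 High cells. The Low arrays stand apart, while the Medium and High arrays lie close together without overlap. Within the hybridizations Medium exceeded High by 0.69 and 0.61. Mep1a was 7.64-fold higher in Low than in High cells (difference 2.93 ± 0.32, SE, n = 2 arrays per group; limma adjusted p = 0.00262). Its first step, Medium minus High, was 0.65 ± 0.32 and did not pass (limma adjusted p = 0.589), and its second step, Low minus Medium, was 2.28 ± 0.32 (limma adjusted p = 0.0128). That second call was lost without EphB2 Low replicate 2 (0.0589), EphB2 Medium replicate 1 (0.0648) or EphB2 Medium replicate 2 (0.0573). Mep1a was also brighter in the second hybridization than in the first in all 3 groups. The shifts were 0.60 in Low, 0.54 in Medium and 0.62 in High cells. With the hybridization as a block, the second step passed (limma adjusted p = 0.00535) and the first did not (0.137). The other probe set, 1447252_s_at, ran lower in level and alike in shape, with differences of 2.84 ± 0.38 over the axis and 0.70 ± 0.38 in the first step, and lost its second-step call without the same arrays (0.0782 to 0.101).

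Mep1b encodes the membrane-anchored beta subunit. Its level was 13.85 and 13.94 in EphB2 Low cells, 12.46 and 12.44 in EphB2 Medium cells, and 10.31 and 10.29 in EphB2 High cells. The 3 groups form separate pairs, and arrays of a group lay within 0.09 of each other. Mep1b was 12.1-fold higher in Low than in High cells (3.59 ± 0.12; limma adjusted p = 0.000235). Both steps passed, the first at 2.15 ± 0.12 (adjusted p = 0.0231) and the second at 1.45 ± 0.12 (adjusted p = 0.00512). Mep1b had thus covered 59.8% of its log2 difference in Medium cells, with 60.7% and 58.8% in the 2 hybridizations. Mep1a had covered 22.1%, with 23.4% and 20.8%. The difference between the 2 subunits was not tested.

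All 3 aminopeptidases rose over the axis. Anpep passed in both steps, Enpep in the first and Xpnpep2 in the second. Anpep, aminopeptidase N, removes neutral residues from the amino end of peptides. Its level was 13.37 and 13.62 in EphB2 Low cells, 12.02 and 12.15 in EphB2 Medium cells, and 10.33 and 10.32 in EphB2 High cells. The groups did not overlap, and the High arrays were nearly identical. The whole difference was 3.17 ± 0.15, or 9.03-fold (limma adjusted p = 0.000385). It split into 1.76 ± 0.15 in the first step (adjusted p = 0.0314) and 1.41 ± 0.15 in the second (adjusted p = 0.00693; 0.0507 without EphB2 Medium replicate 2).

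Enpep, aminopeptidase A, removes acidic residues and is known for cleaving angiotensin II. It stood at 12.33 and 12.61 in EphB2 Low cells, 11.51 and 11.99 in EphB2 Medium cells, and 9.84 and 9.92 in EphB2 High cells. Here the Medium arrays sit close under the Low arrays and far above the High arrays. Enpep was 6.00-fold higher in Low than in High cells (2.58 ± 0.20; limma adjusted p = 0.00115). Its first step was 1.87 ± 0.20 (adjusted p = 0.0461). Its second step, 0.72 ± 0.20, was the one among the 14 that did not pass (adjusted p = 0.0688), though it did with the hybridization as a block (adjusted p = 0.0333). Medium cells held 72.3% of the log2 difference, 67.0% and 77.1% in the 2 hybridizations, the highest share of any member.

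Xpnpep2 is a lipid-anchored aminopeptidase P, which cuts off a residue that precedes proline. It read 10.93 and 11.52 in EphB2 Low cells, 7.78 and 8.03 in EphB2 Medium cells, and 6.80 and 7.06 in EphB2 High cells. The Low arrays stand far above the rest. The whole difference was 4.30 ± 0.23, or 19.6-fold (limma adjusted p = 0.00051), and the second step alone was 3.32 ± 0.23 (adjusted p = 0.00353). The first step was 0.98 ± 0.23 and did not pass (adjusted p = 0.244).

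The enzymes that release or split dipeptides, Dpep1, Ace and Dpp4, all rose over the axis. Dpep1, a lipid-anchored dipeptidase also known for cleaving leukotriene D4, read 12.71 and 13.09 in EphB2 Low cells, 10.46 and 10.70 in EphB2 Medium cells, and 7.90 and 8.62 in EphB2 High cells. The groups were evenly spaced, with the widest spread in High cells. It was 25.0-fold higher in Low than in High cells (4.65 ± 0.27; limma adjusted p = 0.000567), with steps of 2.33 ± 0.27 and 2.32 ± 0.27. The first step missed the threshold on this probe set (adjusted p = 0.0532; 0.042 with the hybridization as a block) and passed on the other, 1435943_at (2.38 ± 0.18, adjusted p = 0.0302). The second step (adjusted p = 0.00922) was lost without EphB2 Medium replicate 1 (0.0562) or EphB2 Medium replicate 2 (0.0573), but not on 1435943_at.

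Ace, angiotensin-converting enzyme, removes dipeptides from the carboxyl end of peptides. Its brightest probe set read 11.68 and 11.77 in EphB2 Low cells, 8.66 on both arrays of EphB2 Medium cells, and 7.07 and 7.13 in EphB2 High cells. The 3 groups form tight, separate pairs. Ace was 24.7-fold higher in Low than in High cells (4.63 ± 0.12; limma adjusted p = 0.000235). The first step was 1.56 ± 0.12 (adjusted p = 0.0314) and the second 3.07 ± 0.12 (adjusted p = 0.00221). On the other probe set, 1427034_at, the whole difference was 5.42 ± 0.19 or 42.7-fold, the widest of the 14, with steps of 2.33 ± 0.19 and 3.08 ± 0.19. Probe set 1427034_at thus put 43.1% of the difference before Medium cells and the brightest one 33.8%.

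Dpp4, a serine peptidase, removes dipeptides that end in proline or alanine and inactivates incretin hormones. Its brightest probe set read 13.57 and 13.64 in EphB2 Low cells, 13.04 and 13.08 in EphB2 Medium cells, and 12.91 and 12.95 in EphB2 High cells. All 6 EphB2 arrays were bright on it, and 0.693% of all probe sets were brighter in Low cells. The whole difference was 0.67 ± 0.12, or 1.59-fold (limma adjusted p = 0.0115). It was lost without EphB2 Low replicate 2 (0.0507), EphB2 High replicate 1 (0.0646) or EphB2 High replicate 2 (0.0642). The second step, 0.54 ± 0.12 (adjusted p = 0.0371), was lost whichever of the 6 arrays was left out (0.0697 to 0.154).

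The other 3 Dpp4 probe sets showed larger differences. Probe set 1438279_at read 7.87 and 7.53 in EphB2 Low cells, 5.66 and 5.14 in EphB2 Medium cells, and 5.13 and 4.81 in EphB2 High cells, a whole difference of 2.72 ± 0.24 (limma adjusted p = 0.00151). Probe sets 1441342_at and 1459973_x_at differed by 2.00 ± 0.19 and 1.96 ± 0.21 (adjusted p = 0.00192 and 0.00238). All 4 were called over the whole axis, with between 15.8% and 22.8% of the log2 difference reached in Medium cells and no first step past the threshold. The second-step calls of 1441342_at and 1459973_x_at were lost without EphB2 Medium replicate 1 (0.0542 and 0.0633) or EphB2 Medium replicate 2 (0.0569 and 0.0572), and that of 1438279_at was not lost. They do not give 1 size for the rise: the brightest of the 4 had the smallest difference and the dimmest the largest. The part of brightness in this was not tested.

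**Figure D2:**
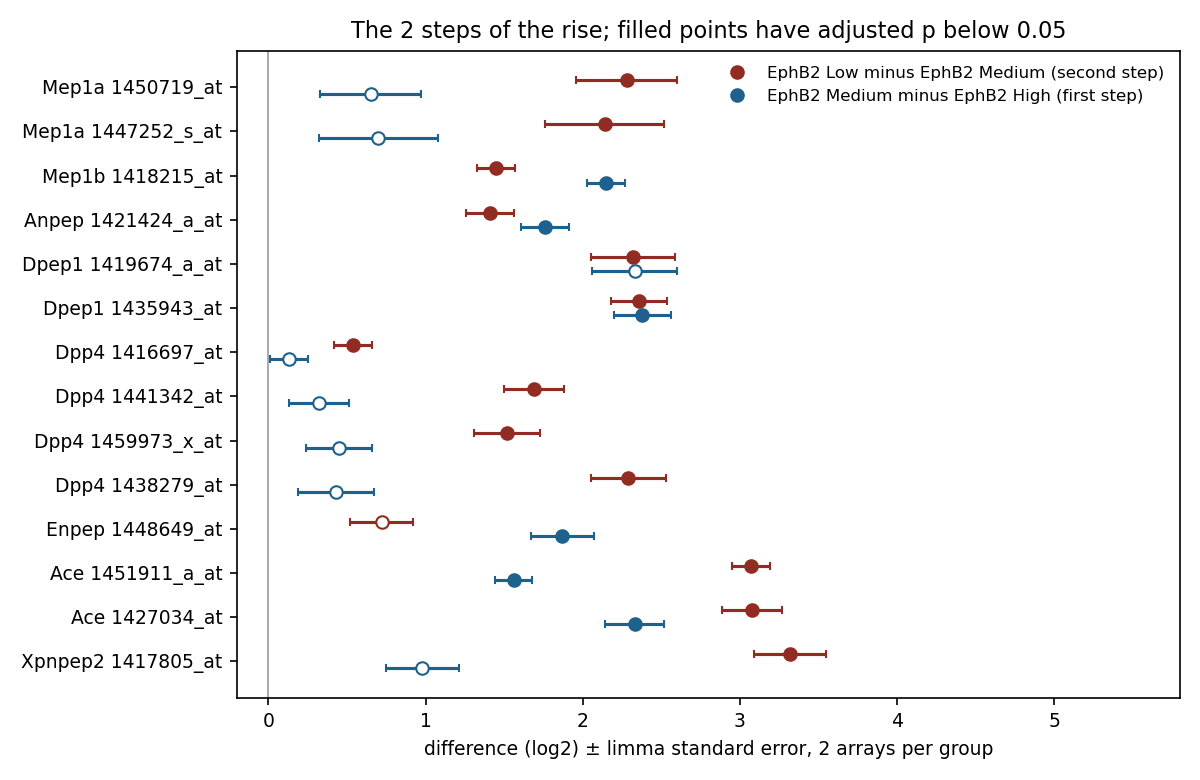
Differences (log2, ± limma standard error, 2 arrays per group) of Low minus Medium and Medium minus High for the 14 probe sets. The Medium minus High point lies to the right for Enpep (1.87 against 0.72), Mep1b and Anpep, and the Low minus Medium point lies to the right for Xpnpep2, Mep1a, Dpp4 and Ace.

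Placed in order by the share of the log2 difference present in Medium cells, the brightest probe sets ran Enpep (72.3%), Mep1b (59.8%), Anpep (55.4%), Dpep1 (50.1%), Ace (33.8%), Xpnpep2 (22.7%), Mep1a (22.1%) and Dpp4 (19.0%). Xpnpep2 and Mep1a are not separated, since their hybridizations gave 23.8% and 21.8% for Xpnpep2 and 23.4% and 20.8% for Mep1a. Anpep gave 55.5% and 55.4%, and Dpep1 53.3% and 46.6%. For comparison, 3083 probe sets of the whole table were called at least 2-fold higher in Low than in High cells, and their share had a median of 30.7% with quartiles of 18.4% and 42.5%. Enpep, Mep1b, Anpep and Dpep1 lie above that middle range in both hybridizations, while Ace, Xpnpep2 and Mep1a lie within it on their brightest probe sets. High shares were not limited to these peptidases: of the 14 enterocyte markers 9 lay above the upper quartile, among them Apoa4 (55.7%), Krt20 (60.9%) and Alpi (74.9%), and of the 10 uptake genes that rose 4 did, among them Slc15a1 (62.8%). Krt20, Alpi and Slc15a1 were named here after their values were seen. Of the goblet cell markers that rose 3 of 3 lay above the upper quartile. The count was 3 of 4 for enteroendocrine markers and 3 of 7 for other peptide digestion enzymes. It was 0 of 3 for lymphocyte markers and 0 of 2 for family relatives.

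Unequal steps were also tested directly, as the second step minus the first. Limma called 0 of all 45037 probe sets at an adjusted p below 0.05, and at an unadjusted p below 0.05 it gave 2061 positive and 1981 negative ones (4.58% and 4.40%). Of the 14 member probe sets, 6 were positive and 2 negative at the unadjusted level. Counted by gene on the brightest probe set, 3 of 8 were positive and 2 negative. The positive ones included Xpnpep2 (2.34 ± 0.40, limma adjusted p = 0.353), Ace on its brightest probe set (1.50 ± 0.21, adjusted p = 0.276) and Mep1a (1.64 ± 0.55, adjusted p = 0.533). The other positive ones all belonged to Dpp4: 1441342_at (1.37 ± 0.33), 1459973_x_at (1.07 ± 0.36) and 1438279_at (1.86 ± 0.41). The brightest Dpp4 probe set did not pass at that level (0.41 ± 0.21, limma unadjusted p = 0.0994). The negative ones were Enpep (-1.15 ± 0.35, adjusted p = 0.514) and Mep1b (-0.70 ± 0.21, adjusted p = 0.513). The order of onset is therefore a description of 2 hybridizations that ran alike, not a tested ranking.

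**Figure D3:**
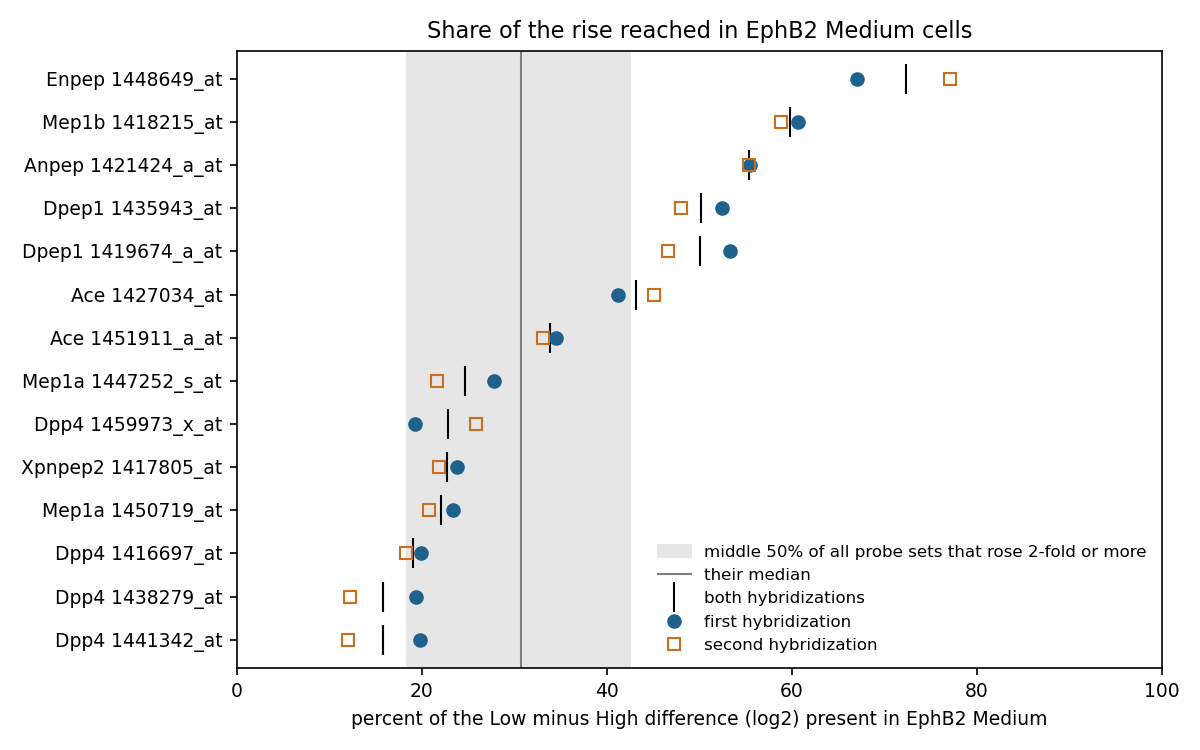
Percent of the Low minus High difference (log2) present in EphB2 Medium cells for each probe set, in each hybridization (points) and in both (ticks); the grey band holds the middle 50% of the 3083 probe sets called at least 2-fold higher in Low than in High cells. Enpep, Mep1b, Anpep and Dpep1 lie right of the band and the remaining genes within or left of it, apart from 1 Ace probe set just past its edge.

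The same levels were also set against each other on a linear scale. EphB2 Medium cells held 60.8% of the EphB2 Low level of Enpep, 37.5% of that of Anpep and 36.7% of that of Mep1b. They held 20.0% of the Low level of Dpep1, about that of Mep1a (20.5%), although Dpep1 had made a larger log2 step. For Ace the Medium level was 11.9% of the Low level and for Xpnpep2 10.0%. EphB2 High cells held between 3.99% (Dpep1) and 16.7% (Enpep) of the Low level on the brightest probe sets, apart from Dpp4 at 62.9%.

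The first-step calls rested on all 6 arrays. Whichever array was left out, each of the 6 calls was lost (adjusted p between 0.0862 and 0.294), and limma then called 0 of all probe sets in that comparison. The differences themselves stayed between 1.54 and 2.54 for those 6 probe sets.

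The Lgr5 reporter sort offers a second view of crypt cells, with 1 array per group and hence no test. All 14 probe sets were higher in the Lgr5 Low than in the Lgr5 High array, 10 of them by a log2 difference of 1 or more, against 4.68% of all probe sets. Dpep1 had the widest difference, with 11.55 in Lgr5 Low and 6.18 in Lgr5 High cells, or 41.3-fold, and 1435943_at gave 10.97 and 5.05, or 60.6-fold. Mep1b read 12.86 in Lgr5 Low and 9.14 in Lgr5 High cells (13.2-fold). Markers of several epithelial types were higher in the same array. A log2 difference of 1 or more was seen for 12 of 14 enterocyte, 9 of 10 enteroendocrine, 5 of 8 goblet cell and 4 of 6 tuft cell markers, among them Gip (6.42) and Clca1 (2.75), named after their values were seen. The part of these cell types in the members' Lgr5 differences was not tested.

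Enpep read 12.18 in Lgr5 Low and 8.47 in Lgr5 High cells (13.1-fold), and Anpep 12.60 and 10.04 (5.92-fold). Ace read 10.05 in Lgr5 Low and 6.78 in Lgr5 High cells (9.62-fold). Xpnpep2 read 8.52 and 6.38 (4.42-fold), and Mep1a 10.32 and 8.93 (2.62-fold). Dpp4 differed least, with 13.03 in Lgr5 Low and 12.83 in Lgr5 High cells on its brightest probe set, and none of its 4 probe sets reached a log2 difference of 1 (0.21 to 0.87).

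Set beside the EphB2 sort, Dpep1 (5.37 against 4.65) and Enpep (3.71 against 2.58) had larger log2 differences between Lgr5 Low and High than between EphB2 Low and High. Mep1b was about equal (3.73 against 3.59), and Mep1a, Xpnpep2, Ace, Anpep and Dpp4 were smaller. The Lgr5 High array was dimmer than the mean of the EphB2 High arrays for Dpep1 (by a difference of -2.07), Enpep (-1.41) and Mep1b (-1.17), and brighter for Mep1a (0.37). The Lgr5 Low array differed from the mean of the EphB2 Medium arrays by between -0.03 (Dpp4) and 1.39 (Ace) over the 14 probe sets. The Lgr5 arrays were hybridized apart from the EphB2 arrays, so sort and hybridization cannot be told apart in these last comparisons.

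**Figure D4:**
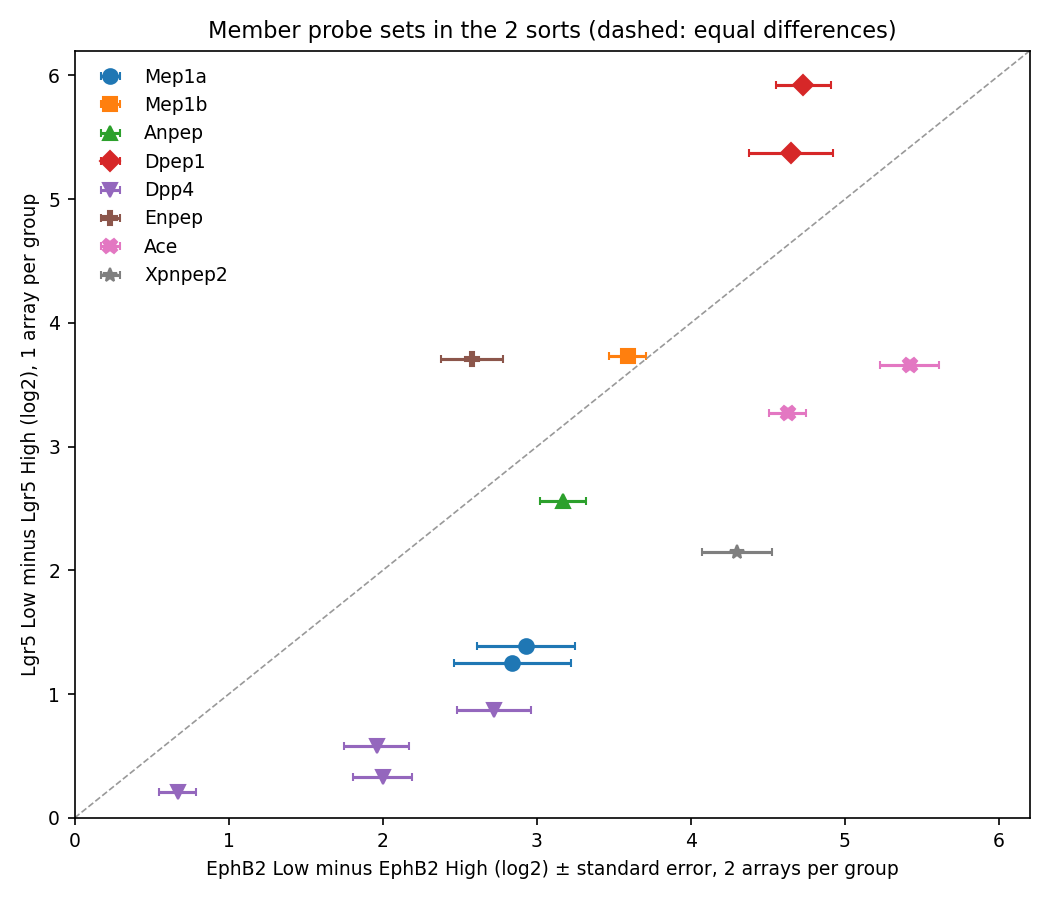
Log2 difference Lgr5 Low minus Lgr5 High (1 array per group) against EphB2 Low minus EphB2 High (± limma standard error, 2 arrays per group) for the 14 probe sets, with a dashed line of equal differences. Dpep1, Enpep and Mep1b lie above the line and the other 5 genes below it.

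Other enzymes of peptide digestion also rose. Of 9 measured genes, 7 were higher in EphB2 Low than in EphB2 High cells, against 13.2% of all genes, with a median difference of 1.66 against -0.01 over all genes. Cndp1, a dipeptidase that splits carnosine, was higher by 4.01 ± 0.21 (limma adjusted p = 0.000497) and Mme (neprilysin, a membrane endopeptidase) by 3.60 ± 0.27. Pepd, a cytosolic enzyme that splits dipeptides ending in proline, was higher by 2.17 ± 0.13, and Naaladl1, a membrane dipeptidase, by 2.01 ± 0.16. The 2 that did not pass, named after their values were seen, were Cpm (-0.47 ± 0.26, adjusted p = 0.256) and Folh1 (0.11 ± 0.13, adjusted p = 0.618).

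Relatives of the members in the same enzyme families mostly did not follow them. Of 21 measured, 2 were higher in EphB2 Low cells, 3 were lower and 16 did not pass, with a median difference of 0.02. Of all genes 13.2% were called higher and 19.6% lower. The astacin protease Bmp1 was higher by 1.44 ± 0.13 (limma adjusted p = 0.00152) and the cytosolic aminopeptidase P gene Xpnpep1 by 1.10 ± 0.13. Xpnpep3, its mitochondrial relative, fell by 1.08 on the log2 scale (SE 0.15) and Ggt7 fell by 1.04 (SE 0.20). Tll1, named after its value was seen, was the other that was lower (-0.53 ± 0.12, adjusted p = 0.025). Tll1 was dim, with means of 2.53 in EphB2 Low and 3.05 in EphB2 High cells. Several relatives that did not pass were dim as well, such as Trhde, Dpp6 and Astl (means of 2.23, 3.02 and 3.65 in EphB2 Low cells). Others that did not pass were bright, such as Npepps (11.64) and Erap1 (10.71). These names were also added after their values were seen. The median of 0.02 thus includes genes with little signal.

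Carriers that take up the products rose as well. Of 12 measured genes for peptide and amino acid uptake, 10 were higher in EphB2 Low than in EphB2 High cells. The share called higher over all genes was 13.2%. The median difference was 1.90 for the 12 and -0.01 over all genes. The 4 with the smallest p were the neutral amino acid carrier Slc6a19 (5.64 ± 0.31, limma adjusted p = 0.000519), the imino acid carrier Slc6a20a (3.03 ± 0.18), the cystine and basic amino acid carrier Slc7a9 (2.44 ± 0.16) and the proton-coupled carrier Slc36a1 (2.35 ± 0.17). Slc15a1, the carrier for di- and tripeptides, was higher by 4.73 ± 0.49 (adjusted p = 0.00228), the second largest difference in the list. Slc15a1 was named after its value was seen, as were Slc1a1 (0.30 ± 0.14, adjusted p = 0.189) and Cltrn (-0.13 ± 0.16, adjusted p = 0.62), which did not pass. Slc6a20a and Slc7a9 were also called between EphB2 Medium and EphB2 High cells (adjusted p = 0.0461 and 0.0486), where 0.511% of all genes were. Both calls were lost with the hybridization as a block (adjusted p = 0.0626 and 0.0701).

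**Figure D5:**
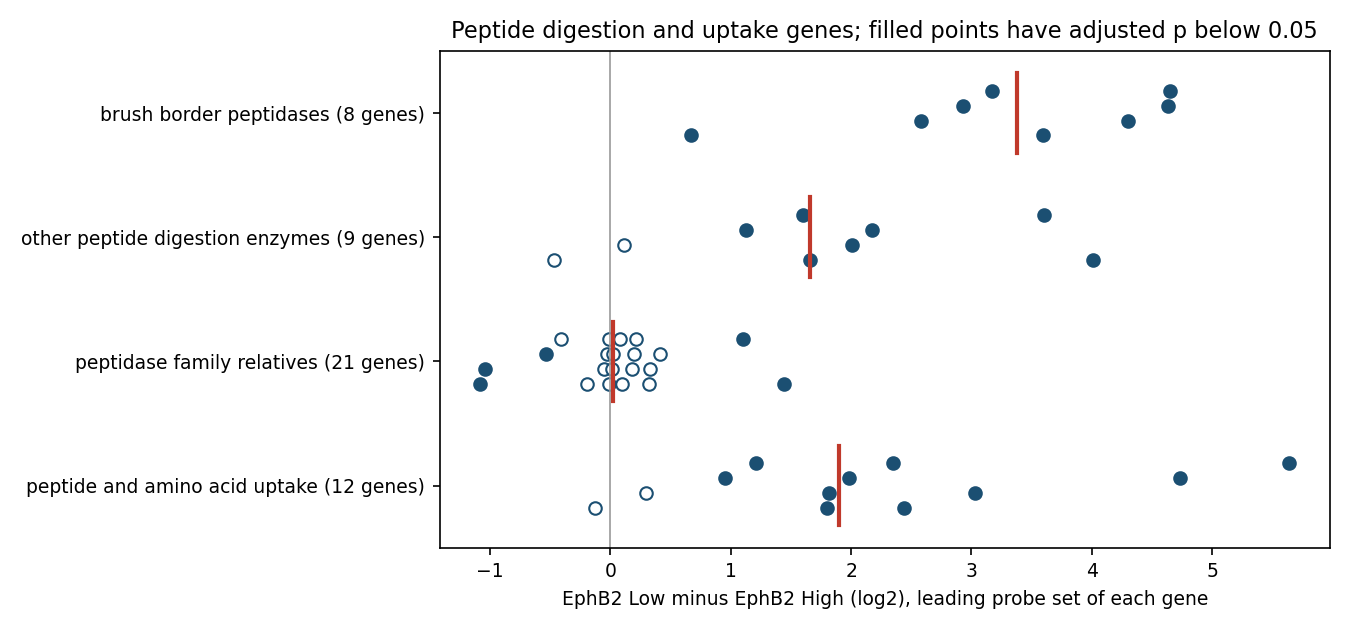
EphB2 Low minus EphB2 High (log2) for the brightest probe set of each gene in 4 lists, with the median as a bar. The 8 measured brush border peptidases all lie above 0 with a median of 3.38, and the 21 family relatives centre on 0.02.

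For each member the genes with the closest profile over all 8 arrays were found by the root mean square difference of levels centred on their own mean. Dpep1 was nearest to Gda, guanine deaminase (0.326), and Slc15a1, the brush border carrier for di- and tripeptides (0.346). Mep1b was nearest to Slc51a, a subunit of the basolateral bile acid exporter (0.148), and Cyp3a13 (0.185). Anpep was nearest to the GTPase gene Rhoc (0.154) and Cyp2d26 (0.171). Enpep was nearest to Krt20, a keratin of differentiated enterocytes (0.217), and the actin-severing Scin (0.226).

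Mep1a was nearest to Cd55, a brake on complement (0.207), and Iyd, iodotyrosine deiodinase (0.265). Ace was nearest to Plekhg6 (0.161) and the peroxisomal thiolase gene Acaa1b (0.228). Xpnpep2 was nearest to Pdzk1, a scaffold of apical carriers (0.19), and Slc46a3 (0.196). The brightest Dpp4 probe set, the least varied of its 4, was nearest to Rnf215 (0.0568) and Mocs2 (0.058). These are descriptions over 8 arrays that share their sort groups.

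Because some members are also known on other cells, the marker lists of those cells are given beside the result. For lymphocytes, the summed log2 level of 13 markers was 65.4 to 67.7 in EphB2 Low cells, 62.0 to 64.9 in EphB2 Medium cells and 61.9 to 63.6 in EphB2 High cells. Of these 13, 3 were higher in EphB2 Low than in High cells, 1 was lower and 9 did not pass. Over all genes 13.2% were called higher and 19.6% lower in this comparison. Cd52 was higher by 1.72 ± 0.17, and Gzma (2.04) and Cd3d (0.75), named after their values were seen, were the other higher ones. Cd3d passed narrowly (limma adjusted p = 0.0479) and was lost with the hybridization as a block (adjusted p = 0.063). Cd79b, of B cells, was lower (-0.99 ± 0.24). Most of the lymphocyte markers were dim, such as Ptprc (mean 3.62 in EphB2 Low cells), and the brightest in EphB2 Low cells was Cd52 (6.90). The part of lymphocytes in the rise of Dpp4 was not tested.

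Myeloid markers, 11 in number, summed to 57.7 to 60.7 in EphB2 Low cells, 60.3 to 63.2 in EphB2 Medium cells and 61.4 to 62.7 in EphB2 High cells. Of them 3 were lower in EphB2 Low cells and 8 did not pass, where 19.6% of all genes were lower and 13.2% higher. The lower ones were Cd14 (-1.98 ± 0.23), Lyz2 (-0.65 ± 0.16) and Cd68 (-1.44 ± 0.41, named after its value was seen). The same shares stand beside the stromal, enteroendocrine and goblet cell counts below. The 8 myeloid markers that did not pass were dim, with EphB2 Low means from 3.34 (C1qb) to 5.61 (Csf1r). Cd14, Lyz2 and Cd68 were brighter, with EphB2 High means of 9.83, 10.33 and 8.09. The part of myeloid cells in the values of Anpep was not tested. The 12 stromal and endothelial markers summed to 59.1 to 59.2 in EphB2 Low cells, 55.3 to 58.4 in EphB2 Medium cells and 55.9 to 57.4 in EphB2 High cells. Of these 1 was lower, Tek (-0.60 ± 0.16), and 11 did not pass. Most were dim, Tek among them (mean 3.27 in EphB2 High cells), while Vim was bright (mean 10.25 in EphB2 Low cells). With the hybridization as a block, Vim (1.14, limma adjusted p = 0.0106) and Col1a2 (0.51, adjusted p = 0.045), named after their values were seen, were called higher in EphB2 Low cells. The part of stromal or endothelial cells in the rise of Ace was not tested. Of 10 enteroendocrine markers 4 were higher in EphB2 Low cells, by the smallest p Sct (1.88 ± 0.21) and Sst (1.64 ± 0.26), 1 was lower and 5 did not pass. Neurod1 (1.83 ± 0.37), Gip (2.96 ± 0.82) and the lower Neurog3 (-1.22 ± 0.28) were named after their values were seen. Of 8 goblet cell markers 3 were higher, 1 was lower and 4 did not pass. Clca1 was higher (0.98 ± 0.17) and Retnlb lower (-2.23 ± 0.27), and Muc2 (0.99 ± 0.20) and Fcgbp (0.62 ± 0.15), named after their values were seen, were the other higher ones.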

How the data were processed

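The deposited table holds log2 expression values of 8 Affymetrix arrays, made by the authors with RMA, per the submitters' processing notes; its version, and whether all arrays were normalized together, are not given in the sources used here. RNA was amplified isothermally before hybridization, per the labels' protocols. RMA gives arrays nearly equal distributions (medians 6.12 to 6.20), which hides shifts of overall RNA content, and precision rests on how few arrays there are.

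Gene names came from platform annotation, with symbols updated by RefSeq gene ID. Of 45101 probe sets, 64 controls were left out, 34945 named 1 gene, 932 several and 9160 none. A gene's leading probe set was its brightest over the EphB2 arrays (18193 genes). Limma 3.58.1 in R 4.3.3 (lmFit, contrasts.fit, eBayes, 2-sided) was fitted to all 45037 probe sets on the 6 EphB2 arrays with a term for group alone, leaving 3 residual degrees of freedom, with Benjamini-Hochberg adjustment and a threshold of 0.05. Errors are limma's standard errors. The script was tested on simulated data. For the Lgr5 arrays a log2 difference of 1 was counted, with no test.

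Replicate numbers of EphB2 arrays mark a shared hybridization in the labels and so pair them; same-numbered arrays deviated together from their group means, with correlations of 0.26 (Low, Medium), 0.18 (Low, High) and 0.47 (Medium, High). The block was an alternative, as no source states its use.

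Named were all members; from each pathway list the 4 genes, and from each marker list the 2, with the smallest p between EphB2 Low and High; and per member the 2 nearest profiles. Members and lists were chosen with earlier results of these data known.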

Additional observations from a re-analysis of the deposited data

How the results depend on the processing

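Every member probe set that an alternative held kept their direction between EphB2 Low and EphB2 High cells under every alternative run (hybridization as a block, all 8 arrays in 1 fit, repeated quantile normalization, median centring, dim probe sets left out, 1 probe set per gene with 8 of the 14, a prior variance with trend, and each array left out), and no value in any comparison was called in opposite directions. The fit of all 8 arrays equals the one reported by construction, since single Lgr5 arrays add no residual freedom. Members called are counted as probe sets in this section, 14 in all, except with 1 probe set per gene. With the replicate block, member probe sets called were 14 between Low and High, 7 between Medium and High and 14 between Low and Medium. Of all probe sets, 68 were called higher and 13 lower between Medium and High, against 127 and 8 without the block. Beyond Dpep1 1419674_a_at in the first step and Enpep in the second, the block changed no call of a member. It also added Ang4, Trpm5, Tac1, Vim and Col1a2 to, and took Cd3d from, the marker genes called between Low and High, and left 5 rather than 7 enterocyte markers and 0 rather than 2 uptake genes called between Medium and High. Without dim probe sets these all-probe-set counts were 198 and 33, and with the trend 426 and 44. With 1 probe set per gene, 8 members were called between Low and High and 8 between Low and Medium, by construction out of 8, and 5 between Medium and High. Over all genes that setting called 2782 higher and 4010 lower between Low and High, 209 and 39 between Medium and High, 1833 higher between Low and Medium, and 1 for the second step minus the first, and 923 genes passed the log2 difference of 1 between Lgr5 Low and High.

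When 1 array was left out, members called higher ranged from 13 to 14 between Low and High, from 6 to 12 between Low and Medium (6 without EphB2 Medium replicate 2 and 7 without EphB2 Medium replicate 1), and stood at 0 between Medium and High. Over all probe sets the range was 2755 to 4755 higher and 3143 to 6047 lower between Low and High, 435 to 2744 higher and 96 to 3496 lower between Low and Medium, and 0 in both directions between Medium and High. Leaving out an array also leaves fewer degrees of freedom, and the cause of the lost calls was not tested further. For single member probe sets, 58 values lost and 10 gained their call, 764 stayed on their side, and 20 untested ones moved by more than 1 SD. Levels of bright probe sets may be compressed, scanner values were not used here, and 2 arrays per group limit every test.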
